A study of Vernicia fordii with 6 samples.

Results

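The unigenes described here encode the core of auxin signalling: the auxin response factors (ARFs), the Aux/IAA proteins and the auxin receptors of the tung tree, Vernicia fordii. They were taken by annotation, as every unigene whose best SwissProt match is named auxin response factor, auxin-responsive protein IAA, transport inhibitor response or auxin signaling F-box. This gave 47 of the 56065 unigenes in the deposited table, with 24 response factors, 15 IAA proteins and 8 receptors. Names are those of the closest SwissProt protein, from Arabidopsis unless rice is stated, and not of proven orthologs. The flowers came from 4-year old trees of the cultivar Duisuitong, a monoecious tree that carries both sexes on one inflorescence. Male and female buds were taken separately, from the same plant, at stage 7, where their development parts. Many flowers were pooled into each sample, and 3 samples of each sex were sequenced. No treatment or genetic change was applied, and the comparison asks which genes differ between male and female buds.

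Auxin is perceived by F-box proteins of the TIR1/AFB group, which sit in an SCF ubiquitin ligase. When auxin is bound, the receptor takes hold of an Aux/IAA protein, which is then degraded. Aux/IAA proteins otherwise hold ARFs inactive together with TOPLESS corepressors, so that their loss lets the ARFs act on genes with auxin response elements. In Arabidopsis flowers this pathway is known for starting flower primordia, patterning the gynoecium and driving the last growth of stamens. The ARFs fall into class A, known as activators, class B, mostly repressors, and class C, the targets of the microRNA miR160. Here a class was given by the number of the closest Arabidopsis protein. The 7 response factors closest to a rice protein were given no class.

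Reads counted on unigenes numbered from 11467832 to 40385019 per library. Libraries were scaled by TMM in edgeR, with factors between 0.319 (female replicate 3) and 1.86 (female replicate 2). Levels are given as TMM-scaled RPKM, reads per kilobase of unigene relative to the scaled library total, which allows unigenes of different length to be compared. The 3 values of a sex are given in the order of replicates 1, 2 and 3. Female replicate 3 stood apart from the other female libraries, with Pearson's r across unigenes of 0.77 to each of them against 0.938 between those. Its r to male replicates 1, 2 and 3 was 0.716, 0.772 and 0.778. By this measure it was no nearer to the other female libraries than to male replicates 2 and 3. Its values rest on the fewest reads, and results that depend on it are also given without it. Defining genes of floral organs were present in all 6 libraries, with AGAMOUS at 47.7 to 71.9 RPKM and APETALA 1 at 18.7 to 50.2 RPKM. DEFICIENS contig_8986 had 99.9 to 251 RPKM in male and 52.8 to 88.4 RPKM in female libraries. DEFICIENS contig_564 had 107 to 237 RPKM in male and 66.2 to 84.9 RPKM in female libraries. APETALA 2 contig_10948 lay lower in male libraries, at 9.87 to 14.5 RPKM against 18.3 to 21.2 RPKM. For APETALA 2 contig_24815 the sexes overlapped. Unigenes with photosynthesis names summed to between 1560 and 15740 CPM (the same scale without the length), and were highest in female replicate 3 and male replicate 1. The order of the libraries in this sum depends on the scaling. In pools of whole buds, fewer cells that express a gene and less RNA per cell cannot be told apart.

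Most of the auxin signalling unigenes were expressed in buds of both sexes. Of the 47, 38 passed edgeR's expression filter and were tested, and the other 9 had between 11 and 107 reads in all libraries together. The 38 had a median level of 15.4 RPKM, against 5.46 RPKM for all unigenes tested, and ran from 1.75 to 79.5 RPKM as means over the 6 libraries. The highest levels belonged to ARF6, IAA17 and IAA9. ARF6 (contig_1973), which with ARF8 drives flower maturation in Arabidopsis, had 77.4, 84.0 and 75.5 RPKM in male and 68.0, 69.7 and 102 RPKM in female libraries. Summed over the family, the response factors reached 311 to 370 RPKM in male and 298 to 347 RPKM in female libraries. The IAA proteins summed to 351 to 409 RPKM in male and 292 to 339 RPKM in female libraries. On this scale every male IAA sum lay above every female one. On RPKM as deposited the IAA sums were 329, 496 and 307 in male and 499, 618 and 97.6 in female libraries, so that the order of the sexes depends on the scaling.

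**Figure D1:**
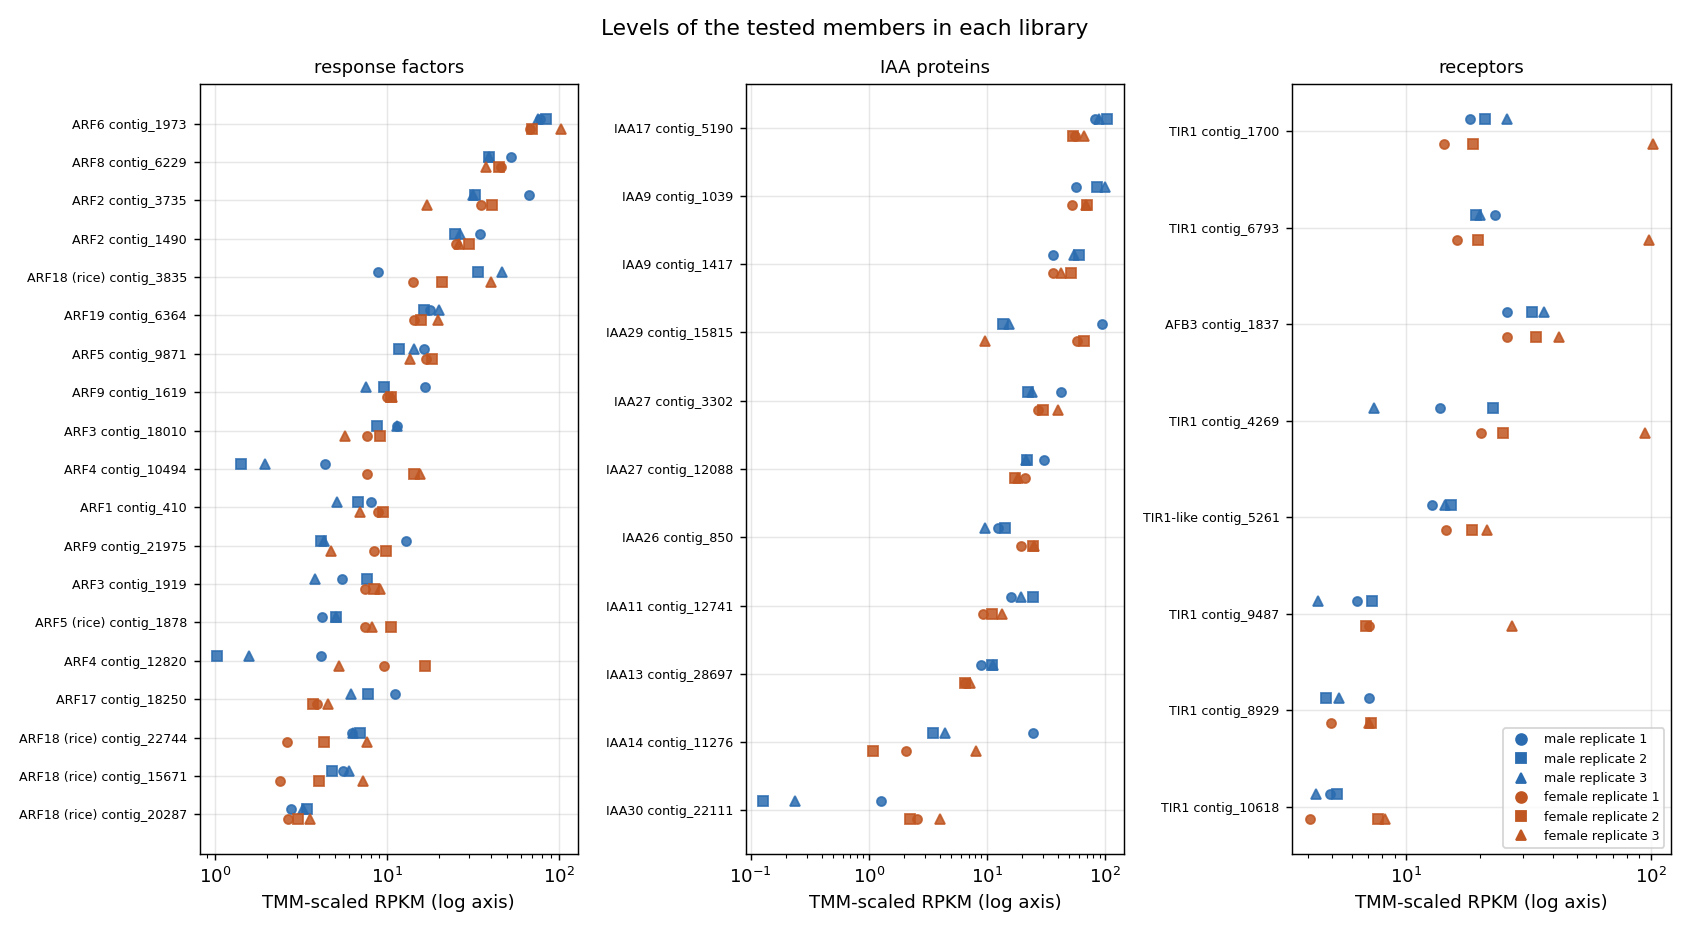
TMM-scaled RPKM on a log axis for the 38 tested unigenes of the 3 families, 1 point for each of the 6 libraries (blue male, orange female, shapes for replicates), ordered by mean level. ARF6, IAA17 and the first IAA9 unigene lie highest, the 2 ARF4 unigenes and IAA30 separate the sexes, and female replicate 3 stands apart for 4 TIR1 unigenes.

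No member was called different between the sexes by the quasi-likelihood test of edgeR, where a call needed a Benjamini-Hochberg adjusted p under 0.05 and a difference of 2-fold or more. Over all 29327 unigenes tested, 1.56% were called higher in male and 0.143% higher in female flowers. At an unadjusted p under 0.05, 2 members (5.26% of those tested) were higher in male flowers and 6 (15.8%) in female flowers, while the shares over all unigenes tested were 5.75% and 7.42%. These counts depend on single libraries. They were 8 toward males and 6 toward females without female replicate 3, and 2 and 2 without male replicate 3. Without female replicate 1 they were 1 and 8, and without female replicate 2 they were 0 and 6. Leaving out male replicate 1 gave 4 and 4, and leaving out male replicate 2 gave 1 and 4. DESeq2 called 3 members, both ARF4 unigenes higher in female and an ARF24-like unigene higher in male flowers, and limma on log2(RPKM + 1) called none. The adjusted p of the 38 ran from 0.145 to 0.990. Log2 differences are male minus female throughout, and 22 of the 38 were smaller than 0.5 in size and 29 smaller than 1. A miss of the threshold does not show that levels were equal, since the SE of these differences was at least 0.28 for every tested member.

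The 3 families had median log2 differences of 0.04 (response factors), 0.34 (IAA proteins) and -0.75 (receptors), beside -0.09 over all unigenes tested. Of the tested response factors 11 were above 0 and 8 below, of the IAA proteins 7 above and 4 below, and all 8 receptors lay below 0. With library totals in place of TMM, the median of all unigenes moved to -0.41. The medians of the families relative to it were then 0.12, 0.38 and -0.20, compared with 0.13, 0.42 and -0.66 under TMM. The sexes did not overlap in 5 tested members with males higher and in 5 with females higher, each 13.2% of the 38, and over all unigenes tested the shares were 10.4% and 9.06%. On RPKM as deposited, which is not TMM-scaled, the counts were 1 and 3, and only an ARF4 unigene and IAA30 were separated, females higher, on both scales.

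**Figure D2:**
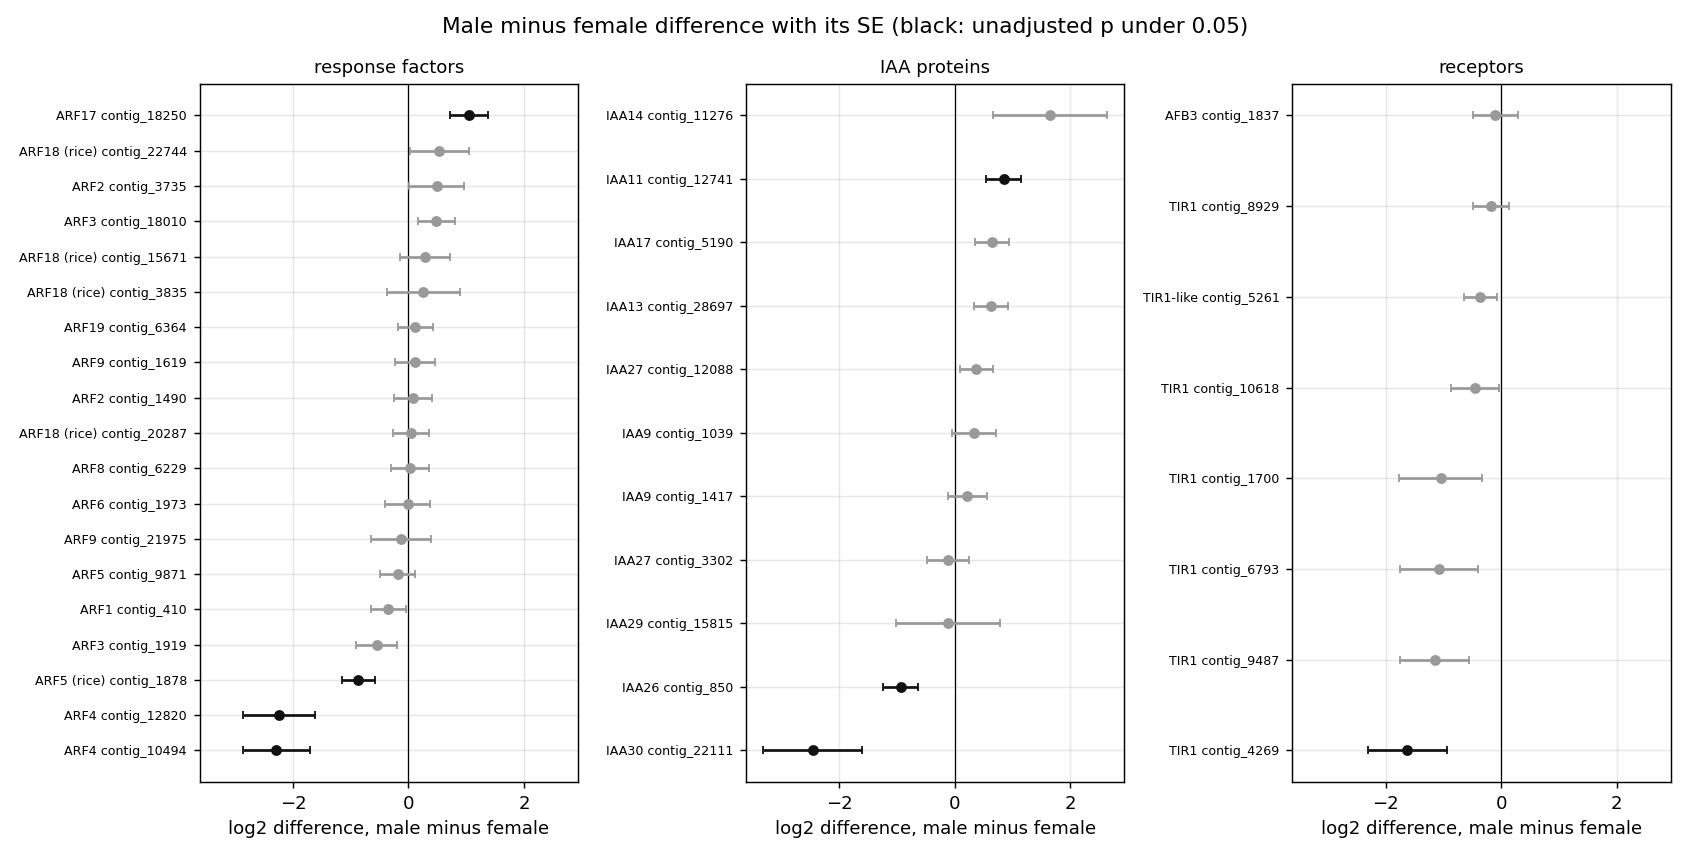
Log2 difference (male minus female) from edgeR with its SE as a bar, for the 38 tested unigenes in 3 panels by family; black points have an unadjusted p under 0.05. The ARF4 unigenes and IAA30 lie below -2, ARF17 lies near 1, and every receptor lies below 0.

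Among response factors, ARF4 had the lowest p in the comparison of the sexes. ARF4 acts in Arabidopsis with ARF3 to set the lower (abaxial) side of lateral organs, and its transcript is a target of trans-acting small RNAs. It was represented by 2 unigenes that match the same Ricinus protein and may be pieces of 1 transcript. The longer one (contig_12820, 2735 bp) had 4.11, 1.02 and 1.57 RPKM in male libraries. In female libraries it had 9.53, 16.7 and 5.21 RPKM. All female libraries thus lay above all male ones, with female replicate 3, counted from 52 reads, nearest to male replicate 1. The shorter one (contig_10494, 461 bp) had 4.35, 1.42 and 1.93 RPKM in male libraries. In female libraries it had 7.61, 14.4 and 15.5 RPKM, again without overlap. The log2 differences were -2.25 (SE 0.63, Benjamini-Hochberg adjusted p = 0.190 by edgeR) and -2.29 (SE 0.58, adjusted p = 0.145). The mean female level was 4.68 and 4.86 times the mean male level. Both had an unadjusted p under 0.05 with each library left out in turn, with log2 differences from -2.89 to -1.75 and from -2.76 to -1.90. DESeq2 gave adjusted p values of 0.0362 and 0.0154, and over all alternatives they ran from these up to 1. On RPKM as deposited the longer unigene overlapped between the sexes (1.66 RPKM in female replicate 3, 3.31 RPKM in male replicate 1) and the shorter one did not.

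**Figure D3:**
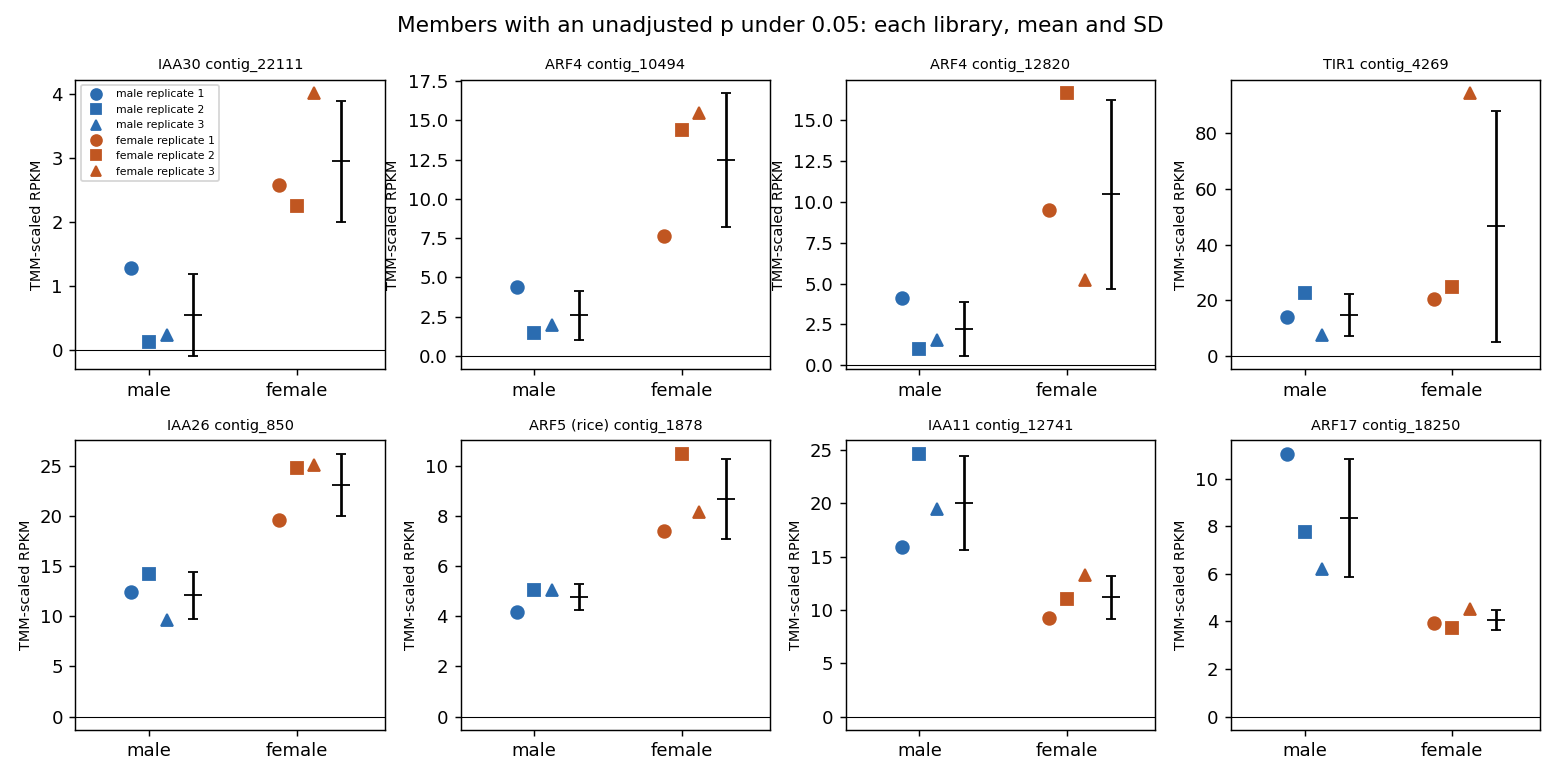
TMM-scaled RPKM of the 8 members with an unadjusted p under 0.05, each in its own panel with a linear axis; points are libraries, and the black bar gives the mean and SD of the 3 libraries of a sex. In 7 panels the sexes do not overlap, and for TIR1 contig_4269 the female mean rests on replicate 3.

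ARF3, known as ETTIN for its part in dividing the Arabidopsis gynoecium into style, ovary and stipe, also had 2 unigenes with the same Ricinus match. Their differences had opposite signs, 0.48 (SE 0.31) for contig_18010 and -0.55 (SE 0.35) for contig_1919, with Benjamini-Hochberg adjusted p of 0.550 and 0.540 by edgeR. The first had 8.76 to 11.5 RPKM in male and 5.70 to 9.10 RPKM in female libraries, the second 3.82 to 7.60 RPKM in male and 7.44 to 9.13 RPKM in female libraries. In both the sexes overlapped. No source used here says how reads that fit more than 1 unigene were counted, so that paralogs and pieces of 1 transcript cannot be told apart.

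The remaining class B factors had log2 differences between -0.35 and 0.49. ARF2, which restrains organ growth and promotes senescence and abscission in Arabidopsis, had 2 well expressed unigenes with different closest matches. ARF2 contig_3735 had 66.9, 32.3 and 31.5 RPKM in male and 35.2, 40.8 and 17.2 RPKM in female libraries. Its highest value was in male replicate 1 and its lowest in female replicate 3, and the log2 difference was 0.49 (SE 0.48). ARF2 contig_1490 ran from 24.9 to 34.5 RPKM in male and from 25.1 to 30.0 RPKM in female libraries, a log2 difference of 0.08 (SE 0.33). Both ARF2 differences were negative with library totals in place of TMM. ARF1 (contig_410), which shares the abscission role of ARF2, had a difference of -0.35 (SE 0.30), and the 2 ARF9 unigenes had 0.12 (SE 0.35) and -0.13 (SE 0.52). The 9 tested class B unigenes had a median of -0.13, and 2 of them, those of ARF4, had an unadjusted p under 0.05.

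The 4 class A factors had log2 differences from -0.19 to 0.12. ARF8 (contig_6229), which in Arabidopsis acts with ARF6 in stamen filament growth and fruit initiation, had 52.2, 39.3 and 39.0 RPKM in male and 46.0, 44.6 and 37.7 RPKM in female libraries. Its log2 difference was 0.02 (SE 0.33) and that of ARF6 was -0.02 (SE 0.40), and both signs flipped under some alternatives. ARF5 (contig_9871), called MONOPTEROS and required for flower primordia in Arabidopsis, had 11.7 to 16.5 RPKM in male and 13.5 to 18.1 RPKM in female libraries (log2 difference -0.19, SE 0.31). ARF19 (contig_6364), known from lateral root formation, had 16.3 to 19.9 RPKM in male and 14.3 to 19.7 RPKM in female libraries (log2 difference 0.12, SE 0.30). A further unigene (contig_1878) whose closest match is ARF5 of rice, numbered apart from Arabidopsis, lay lower in male buds. It had 4.16, 5.05 and 5.07 RPKM in male and 7.40, 10.5 and 8.16 RPKM in female libraries, without overlap. Its log2 difference was -0.87 (SE 0.28, Benjamini-Hochberg adjusted p = 0.262 by edgeR), and leaving out each library in turn kept an unadjusted p under 0.05 in 2 of 6 cases. On RPKM as deposited the sexes overlapped, with 2.59 RPKM in female replicate 3 and 3.34 to 6.87 RPKM in male libraries.

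In Arabidopsis anthers ARF17 controls callose and pollen wall formation. ARF17 (contig_18250), the only unigene placed in class C here, was the response factor with the largest difference toward males among those tested. Its levels were 11, 7.77 and 6.18 RPKM in male libraries. In female libraries they were 3.92, 3.70 and 4.54 RPKM. The sexes did not overlap, and the female libraries lay close together. The log2 difference was 1.05 (SE 0.33, Benjamini-Hochberg adjusted p = 0.244 by edgeR), and 0.92 to 1.32 with a library left out. On RPKM as deposited the sexes overlapped. Unigenes named for anther, tapetum, pollen, microspores or male sterility (28, of which 21 were tested) also summed higher in male buds, at 582 to 929 CPM against 217 to 405 CPM in female buds. Of the 21 tested, 13 had log2 differences above 0 and 8 below, with a median of 0.34. EdgeR's test called 4 higher in males and 0 higher in females, where 1.56% and 0.143% were called over all unigenes tested. Of these 4, contig_36801 and contig_37245 had no female read. They could pass the filter only through the male libraries, so that their calls are not support for a difference. By contrast, contig_22080 had no male read and 150, 328 and 3 reads in female libraries. The part of anther and pollen cells in the ARF17 difference was not tested. The 4 unigenes closest to ARF18 of rice, which were given no class, had log2 differences from 0.04 to 0.53, and in each the sexes overlapped. The strongest of them (contig_3835) had 8.84, 33.7 and 46.8 RPKM in male and 14.1, 20.8 and 40.4 RPKM in female libraries, a wide spread within each sex.

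One short response factor unigene had reads in male libraries alone. The 357 bp contig_37717, closest to ARF24 of rice, had 10, 6 and 9 reads in male libraries, which is 2.44, 0.734 and 2.04 RPKM, and no read in the female libraries. Against a floor of 3 reads over the female libraries together, which corresponds to 0.0631 RPKM, its pooled male level was 23.7-fold higher. This allows for counting error in the female libraries only, with the male reads taken as counted, and not for the spread between pools. It did not pass the expression filter of the main test, which therefore gives it no p. With no female read it can pass such a filter only through the male libraries, so that the call by edgeR without female replicate 3, where it passed, is not support for a difference. With all unigenes entered, edgeR did not call it and DESeq2 did (Benjamini-Hochberg adjusted p = 0.00224). The other 4 response factor unigenes below the filter, closest to ARF1, ARF2, ARF11 and rice ARF4, did not exceed 0.981 RPKM in any library.

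Among the IAA proteins, the 3 unigenes of highest mean level, 1 of IAA17 and 2 of IAA9, had positive differences that did not pass the test. IAA17 (contig_5190), known as AXR3 from auxin-resistant Arabidopsis plants, had 82.3, 104 and 88.4 RPKM in male and 55.8, 54.0 and 66.1 RPKM in female libraries. The sexes did not overlap, and the log2 difference was 0.64 (SE 0.29, Benjamini-Hochberg adjusted p = 0.402 by edgeR). IAA11 (contig_12741) had 15.9, 24.7 and 19.5 RPKM in male and 9.24, 11 and 13.3 RPKM in female libraries, also without overlap. Its log2 difference was 0.85 (SE 0.31, Benjamini-Hochberg adjusted p = 0.305 by edgeR), and 0.72 to 1.13 with a library left out, with an unadjusted p under 0.05 in 3 of those 6 cases. IAA13 (contig_28697), a close relative of the Arabidopsis embryo regulator BODENLOS, lay at 8.88 to 11.3 RPKM in male and 6.54 to 7.14 RPKM in female libraries (log2 difference 0.63, SE 0.29). For IAA17, IAA11 and IAA13 the sexes overlapped on RPKM as deposited.

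IAA9, whose loss gives fruit without pollination in tomato, was represented by 2 unigenes with different closest matches. IAA9 contig_1039 had 57.1, 86.4 and 99.3 RPKM in male and 52.6, 70.6 and 69.0 RPKM in female libraries. IAA9 contig_1417 had 36.3, 59.8 and 54.9 RPKM in male and 36.1, 51.4 and 42.3 RPKM in female libraries. In both unigenes replicate 1 was the lowest of its sex, and the sexes overlapped. The log2 differences were 0.34 (SE 0.38) and 0.22 (SE 0.34), the second being negative with library totals in place of TMM. The 2 IAA27 unigenes had 0.37 (SE 0.29, contig_12088) and -0.12 (SE 0.36, contig_3302).

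IAA26 and IAA30 lay higher in female buds. IAA26 (contig_850) had 12.4, 14.2 and 9.62 RPKM in male and 19.6, 24.8 and 25.0 RPKM in female libraries. Its log2 difference was -0.93 (SE 0.30, Benjamini-Hochberg adjusted p = 0.260 by edgeR), and -1.05 to -0.68 with a library left out. On RPKM as deposited the sexes overlapped for IAA26, with 7.96 RPKM in female replicate 3 and 8.42 to 19.3 RPKM in male libraries. IAA30 (contig_22111) belongs in Arabidopsis to the few Aux/IAA proteins that lack the conserved degron bound by the receptor. It had 1.28, 0.128 and 0.237 RPKM in male libraries, from 10, 2 and 2 reads. In female libraries it had 2.57, 2.25 and 4.01 RPKM, from 98, 113 and 10 reads. The sexes did not overlap on this scale or on RPKM as deposited. The log2 difference was -2.46 (SE 0.86, Benjamini-Hochberg adjusted p = 0.293 by edgeR), and it moved between -3.87 without male replicate 1 and -1.84 without male replicate 2. IAA18 (contig_46942), below the filter, had 4, 1 and 0 reads in male and 41, 61 and 0 reads in female libraries. In female replicate 3 a count of 0 allows up to 0.928 RPKM (a floor of 3 reads), beside 0.829 and 0.935 RPKM in female replicates 1 and 2, so that a difference between them was not detectable at this depth.

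IAA29 (contig_15815), an Aux/IAA gene that responds to light quality in Arabidopsis, varied widely between libraries of the same sex. It had 94.8, 13.6 and 15.4 RPKM in male libraries. In female libraries it had 57.6, 66.6 and 9.57 RPKM. Male replicate 1 and female replicates 1 and 2 were thus high, and male replicates 2 and 3 and female replicate 3 low. The log2 difference was -0.12 (SE 0.90, Benjamini-Hochberg adjusted p = 0.965 by edgeR). With a library left out it ran from -1.48 to 0.39, so that its sign depends on the library. IAA14 (contig_11276), which blocks lateral root initiation in Arabidopsis when stabilised, was also highest in male replicate 1, with 24.8 RPKM against 3.47 and 4.43 RPKM in male replicates 2 and 3. Its female values were 2.08, 1.09 and 8.18 RPKM, and the log2 difference of 1.65 had an SE of 0.99. A second, shorter IAA29 unigene (contig_33840), the IAA33 unigene and a short IAA26 unigene were below the filter, with at most 2.74 RPKM in any library.

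All 8 receptors were expressed in both sexes, and 4 of them were set apart in 1 library. AFB3 (contig_1837), an F-box receptor related to TIR1, had 25.8, 32.7 and 36.6 RPKM in male and 25.8, 33.9 and 42.4 RPKM in female libraries. The log2 difference was -0.10 (SE 0.39). The TIR1-like receptor (contig_5261), whose Arabidopsis counterpart is known as AFB5 and senses the synthetic auxin picloram, had 12.7 to 15.3 RPKM in male and 14.6 to 21.4 RPKM in female libraries (log2 difference -0.36, SE 0.29). The other 6 unigenes match TIR1, the founding member of this receptor group. Of these, contig_8929 (3243 bp) and contig_10618 (833 bp) match the same Ricinus protein, and had log2 differences of -0.17 (SE 0.31) and -0.45 (SE 0.41).

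The remaining 4 TIR1 unigenes were high in female replicate 3 alone. TIR1 contig_1700 (1372 bp) had 18.3, 21.1 and 25.9 RPKM in male and 14.3, 18.8 and 102 RPKM in female libraries. TIR1 contig_6793 (497 bp) had 98.7 RPKM in female replicate 3 and 16.2 to 23.2 RPKM elsewhere. TIR1 contig_4269 (403 bp), with the same closest match as contig_1700, had 94.5 RPKM in female replicate 3 and 7.44 to 24.9 RPKM elsewhere. TIR1 contig_9487 (927 bp) had 27.2 RPKM in female replicate 3 and 4.37 to 7.30 RPKM elsewhere. Female replicate 3 was 6.19, 5.50, 4.19 and 3.90 times the mean of the other female libraries for these 4, and between 1.17 and 1.42 times for the other 4 receptors. On RPKM as deposited it did not exceed the highest of the other libraries in any of the 8, and contig_6793 then separated the sexes, females higher. The log2 differences of the 4 ran from -1.63 to -1.04, and that of contig_4269 (-1.63, SE 0.68, Benjamini-Hochberg adjusted p = 0.365 by edgeR) had an unadjusted p under 0.05. Without female replicate 3 they were 0.54, 0.36, -0.47 and -0.07 in the same order as the ratios, 4 of the 8 receptors lay above 0, and the family median was -0.01. On the TMM scale the photosynthesis sum was also highest in this library, at 15740 CPM, followed by male replicate 1 at 12111 CPM. In male replicate 1, contig_1700, contig_6793, contig_4269 and contig_9487 had 18.3, 23.2, 13.8 and 6.30 RPKM. The order of the libraries in this sum depends on the scaling, and the part of photosynthetic tissue in these values was not tested.

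**Figure D4:**
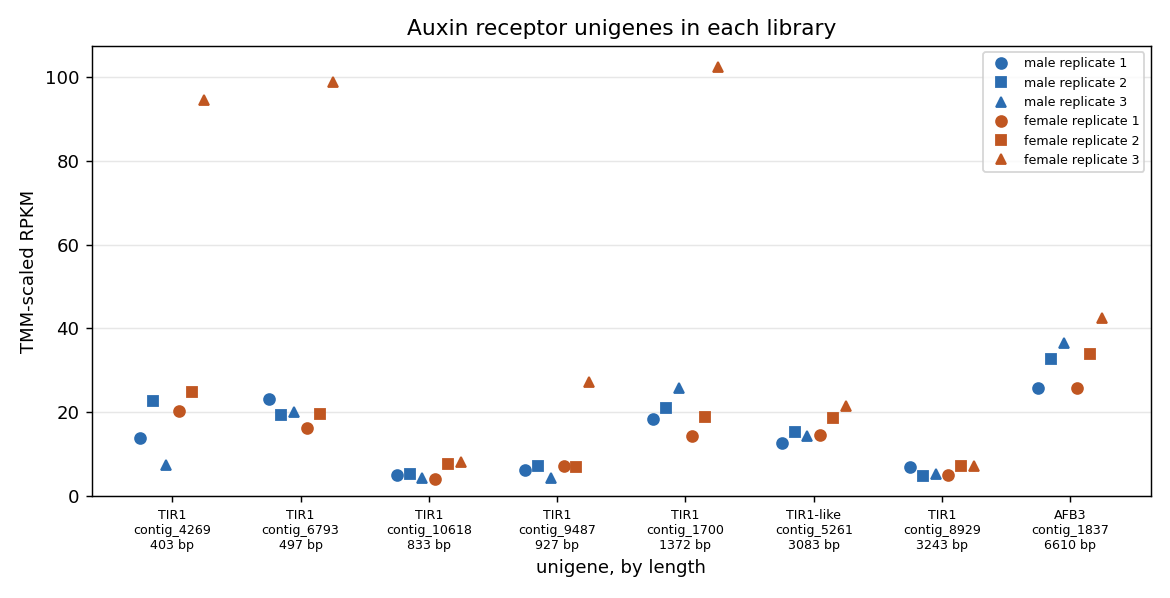
TMM-scaled RPKM on a linear axis from 0 for the 8 receptor unigenes, ordered by length, with 1 point for each library. Female replicate 3 lies at 94.5 to 102 RPKM for 3 TIR1 unigenes and at 27.2 RPKM for contig_9487, above every other library, while the other 4 receptors show values of that library of at most 42.4 RPKM.

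Partners of the receptors and repressors were taken by name from the same annotation. Of 51 unigenes for SCF subunits and their regulators (SKP1-like proteins, cullin-1, RING-box, NEDD8 conjugation, SGT1 and the COP9 signalosome), 45 were tested and none was called. The median log2 difference was 0.33 with 38 above 0. At an unadjusted p under 0.05, 2 lay toward males and 0 toward females, against 5.75% and 7.42% of all unigenes tested. The 2 were an SGT1 homolog (contig_3657, 0.67, SE 0.26) and subunit 3 of the COP9 signalosome (contig_10129, 0.86, SE 0.28). All 7 TOPLESS corepressor unigenes were tested and none reached an unadjusted p under 0.05, with log2 differences from -0.45 to 0.59 and a median of 0.06. The 5 Aux/IAA unigenes that SwissProt names auxin-induced protein 22B, 22D, AUX22 or AUX28, and that the choice by name leaves out, had a median of 0.39 (-0.07 to 0.68), and none reached an unadjusted p under 0.05.

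Among genes that auxin induces early, GH3 enzymes conjugate auxin to amino acids and SAUR proteins promote cell growth. Of 31 such unigenes 27 were tested, with 2 called higher in male flowers and 0 higher in female flowers. At an unadjusted p under 0.05 there were 5 toward males and 0 toward females. Over all unigenes tested, 1.56% and 0.143% were called, and 5.75% and 7.42% had such a p. GH3.6 (contig_9938) had 35.5, 60.7 and 72.1 RPKM in male and 2.69, 3.87 and 4.86 RPKM in female libraries, with a log2 difference of 3.89 (SE 0.46). The SAUR unigene contig_19765, closest to soybean X10A, had 9.88, 16.3 and 19 RPKM in male and 1.82, 2.01 and 2.41 RPKM in female libraries, with a log2 difference of 2.87 (SE 0.36). In both genes the lowest male value lay well above the highest female value. The median over the list was 0.29, with 17 above and 10 below 0. Its summed level was 424 to 656 CPM in male libraries and 130, 149 and 530 CPM in female libraries. On this TMM scale female replicate 3, with a factor of 0.319, lay within the male range, and its place depends on the scaling. Carpel and ovule names (15 unigenes, 14 tested) summed to 64.4 to 66.2 CPM in male and 77.0 to 92.7 CPM in female buds. The order of the sexes in these sums depends on the scaling, and none of these unigenes was called. Their median log2 difference was -0.47 with 12 of 14 below 0. The sexes did not overlap in 4, females higher, a share of 9.06% over all unigenes tested. At an unadjusted p under 0.05 there were 0 toward males and 2 toward females, against 5.75% and 7.42% of all unigenes tested. The 2 were SHI RELATED SEQUENCE 5 (contig_13898, -2.24, SE 0.61) and SHI RELATED SEQUENCE 2 (contig_17441, -1.27, SE 0.46), of a family that acts in style and stigma growth in Arabidopsis. Their part in the female differences of ARF4, IAA26 and IAA30 was not tested.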

How the data were processed

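The authors removed adapters, short and low-quality reads, assembled the rest de novo with CLC Genomics Workbench and CAP3, and deposited raw read counts and RPKM per unigene for each library, with unigene lengths and best matches. No source used here names the program that counted reads. Column names carry "gy" and "an", read as female and male. Of the table, 7 lines without a new unigene were left out. RPKM recomputed from counts differed from the deposited RPKM by at most 4.73e-08 in relative terms.

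The deposited counts went into edgeR 4.0.16 under R 4.3.3 (filterByExpr, TMM, quasi-likelihood F test, prior count 0.125, Benjamini-Hochberg over all unigenes tested). DESeq2 1.42.0 and limma 3.58.1 were alternatives, with others in the closing section. The SE was taken as the size of the log2 difference over the root of its F. The fit was tested on simulated counts. Tables and figures used Python 3.11.15, pandas 2.3.3, numpy 2.4.6 and matplotlib 3.10.9. P-values measure the spread between pools of flowers.

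The members and lists were chosen with earlier results of these data known. Named in full by rule were, in each family, the 4 members of lowest p and the 4 of highest mean RPKM, and IAA29 contig_15815. Other members and partners were named after their values were seen. Samples of the same number deviated together from the means of their sexes (r = 0.18, 0.12 and 0.33 for replicates 1, 2 and 3). Pairs of unlike number had r from -0.29 to 0.15, and male 1 with female 2 (0.15) lay above the matched pair 2. With each matched r over 0.1, the numbers were taken to pair samples. This rests weakly on the data, and on the methods, in which one plant gave buds of both sexes. The main fit did not use the pairing, so that every SE and p from it is unpaired. The closing section gives the fit with the replicate number as a block.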

Additional observations from a re-analysis of the deposited data

How the results depend on the processing

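Female replicate 3, with the smallest scaled total of 3648171 reads, sets the limit for unigenes of few reads. With the replicate number as a block, no member was called, and 2 members higher in male and 5 higher in female flowers had an unadjusted p under 0.05. This replicate block changed no call. The medians of response factors, IAA proteins and receptors were then 0.04, 0.31 and -0.42, beside -0.03 over all unigenes tested. For TIR1 contig_1700, contig_6793 and contig_9487 the log2 differences with the block were -0.46, -0.55 and -0.84. For TIR1 contig_4269 the block gave -1.32, and its unadjusted p was no longer under 0.05. Members called higher in male and in female flowers numbered 1 and 2 with DESeq2, and 0 to 1 called higher in male with each library left out, the 1 being contig_37717 when female replicate 3 was left out. With an unadjusted p under 0.05, males were higher in 0 members with library totals, 4 with DESeq2, 0 with limma, and 0 (without female replicate 2) to 8 (without female replicate 3) with a library left out. Females were higher in 3 with library totals, 3 with limma, and 2 (without male replicate 3) to 8 (without female replicate 1) with a library left out. With library totals the medians of response factors and IAA proteins were -0.28 and -0.027, and the receptor median ran from -1.10 (without female replicate 1) to -0.013 (without female replicate 3). Signs were reversed with library totals for contig_1417 (-0.11), contig_1490 (-0.34), contig_3735 (-0.18) and contig_6229 (-0.43). They were also reversed for contig_6229 with limma (-0.018), for contig_1837 with no filter (0.050), and for contig_1973 with no filter (0.13), DESeq2 (0.064) and the block (0.0083). With a library left out, log2 differences that turned in sign ran from -1.48 to 0.39 for contig_15815, -1.48 to 0.54 for contig_1700, -0.28 to 0.23 for contig_1837, -0.13 to 0.34 for contig_1973 and -1.49 to 0.36 for contig_6793. The cause of these changes was not tested. Of the other comparisons of a named member with an alternative, 217 kept direction and side of the threshold and 2, of ARF4 with DESeq2, passed it. Calls over all unigenes numbered 499, against 802 with no filter, 1755 with DESeq2, and 269 (without female replicate 2) to 970 (without female replicate 3) with a library left out.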

Other observations

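The best match in the NR protein database names 3 further unigenes auxin response factors and 2 TRANSPORT INHIBITOR RESPONSE 1, which the choice by SwissProt name leaves out. Of the 3 without a SwissProt match, contig_33706 (1228 bp), closest to a Ricinus auxin response factor, had 1.14, 0.427 and 0.792 RPKM in male libraries. In female libraries contig_33706 had 3.40, 3.22 and 0.670 RPKM. Its log2 difference of -1.73 (SE 0.68, Benjamini-Hochberg adjusted p = 0.338 by edgeR) rests on female replicates 1 and 2, since female replicate 3 lay within the male range. The ARF8-2 match contig_45313 (693 bp) had 93 and 94 reads in female replicates 1 and 2, none in female replicate 3 and 2, 5 and 0 reads in male replicates 1, 2 and 3. The third, contig_25446 (334 bp), had 2.87 to 6.31 RPKM in male and 7.08 to 11 RPKM in female libraries, without overlap (log2 difference -0.85, SE 0.49). Of the receptor matches, contig_18569, which SwissProt names FBX14, a relative of AFB5, had 1.38 to 3.48 RPKM in male and 4.49 to 5.81 RPKM in female libraries (log2 difference -0.92, SE 0.44), again without overlap, and contig_17330 lay at 4.24 to 6.49 RPKM in all 6 libraries. These unigenes were examined after their values were seen.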
